A study of Mus musculus with 9 samples.

Results

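Wnt signalling genes were measured by RNA sequencing in 3 tissues of drug-treated mice, namely L3 to L5 dorsal root ganglia (DRG, the clusters of sensory nerve cell bodies), lumbar spinal cord (also called cord here) and hind paw punch biopsies. The set was chosen by symbol. It holds 19 Wnt ligands, 10 Frizzled receptors, the coreceptors Lrp5 and Lrp6, 5 secreted Frizzled-related proteins (Sfrp genes and Frzb), 4 Dkk genes, Wif1, 4 R-spondins, their receptors Lgr4, Lgr5 and Lgr6, and the target gene Axin2. These are 49 of the 22609 genes counted. All mice were male C57 animals of 8 to 12 weeks that had been given 2 intraperitoneal doses of paclitaxel (2 mg/kg), a chemotherapy drug that stabilises microtubules. All had also received a lymphotoxin-beta receptor antagonist (15 µg at each site) into the hind paw and the spinal fluid, on days 1 and 4 by the sample titles, and between the drug doses and 1 day after them by the series text. Tissue was taken 6 days after the last paclitaxel dose. Each tissue has 3 samples and every sample has the same treatment, so the comparisons are between tissues, and effects of paclitaxel or the antagonist were not tested. IgG-treated controls are not analysed here.

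Wnt proteins are secreted, lipid-modified ligands that bind Frizzled receptors together with Lrp5 or Lrp6. In the canonical branch this stabilises beta-catenin, which activates target genes such as Axin2 with factors of the Tcf and Lef family. Other branches act without beta-catenin, on cell polarity and axon growth. Sfrp proteins and Wif1 bind Wnts outside the cell, and Dkk1 and Dkk2 block the coreceptors. R-spondins act through Lgr receptors to keep Frizzled proteins on the cell surface by removing the ubiquitin ligases Znrf3 and Rnf43. In skin the pathway is known for hair follicle and epidermal stem cells, and in the central nervous system for axon guidance and the blood vessel barrier.

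Libraries held 15537545 to 23229724 reads assigned to genes, so that 3 reads equal 0.134 to 0.185 CPM (reads per 1000000 reads of the scaled library size). Of the 49 genes 44 had enough reads to be tested, among 16091 genes in all. A gene is called where its Benjamini-Hochberg adjusted p over all these genes was under 0.05 in edgeR's quasi-likelihood test. Differences are log2 values ± standard error and levels are CPM, with mean ± SD over n = 3 where a single value is given. The labels do not say that samples came from separate mice, so a p-value here measures no more than sample-to-sample spread, which may be technical. Defining markers followed the tissue labels. Scn10a of sensory neurons was at 1044, 789 and 1303 CPM in DRG samples 1 to 3 and at most 2.53 CPM elsewhere. Gfap of astrocytes was at 1076, 1033 and 889.7 CPM in cord, and Krt5 of basal keratinocytes at 2533, 2109 and 2362 CPM in paw. Paw punches also held muscle (6 muscle markers summed to 13930, 15270 and 18360 CPM), and DRG samples held unequal amounts of it (589, 897 and 31.9 CPM). Spinal cord sample 3 stood apart in Schwann and satellite glia markers, with a sum of 7 genes of 2362, 2545 and 6352 CPM in samples 1 to 3. In bulk tissue, fewer cells of a type and less RNA per cell cannot be told apart.

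Promoter sequences are shown for the genes that the tissue contrasts turn on, namely Wnt2b of DRG, Wnt7a of cord, Wif1 of paw and the target gene Axin2, which was at 18.8 to 28.0 CPM in every library. Each run is the 250 bases before the gene's start, 5′ to 3′ on the gene's strand, from RefSeq (GRCm38.p6), with every CpG, a C followed by a G, in capitals. The counts themselves were made on another build, mm9. The Wnt2b window is chr3:104961710-104961959, minus strand, that of Wnt7a chr6:91411354-91411603, minus strand, that of Wif1 chr10:121033754-121034003, plus strand and that of Axin2 chr11:108920099-108920348, plus strand.
Wnt2b: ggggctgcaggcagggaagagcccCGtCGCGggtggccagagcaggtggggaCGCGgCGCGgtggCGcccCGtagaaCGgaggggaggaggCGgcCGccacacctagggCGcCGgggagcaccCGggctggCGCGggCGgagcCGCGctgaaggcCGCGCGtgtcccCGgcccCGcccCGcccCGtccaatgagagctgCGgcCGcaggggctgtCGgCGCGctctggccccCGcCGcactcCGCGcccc
Wnt7a: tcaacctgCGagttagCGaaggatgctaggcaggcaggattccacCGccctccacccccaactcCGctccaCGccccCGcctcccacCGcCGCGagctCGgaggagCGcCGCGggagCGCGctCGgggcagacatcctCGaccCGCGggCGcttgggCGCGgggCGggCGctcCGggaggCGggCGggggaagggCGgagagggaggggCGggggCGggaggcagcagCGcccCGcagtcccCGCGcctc
Wif1: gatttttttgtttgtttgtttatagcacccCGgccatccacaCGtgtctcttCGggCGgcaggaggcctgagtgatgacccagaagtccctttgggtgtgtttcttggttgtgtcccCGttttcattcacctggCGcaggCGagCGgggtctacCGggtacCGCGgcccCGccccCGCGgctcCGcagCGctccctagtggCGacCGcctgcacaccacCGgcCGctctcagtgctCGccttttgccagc
Axin2: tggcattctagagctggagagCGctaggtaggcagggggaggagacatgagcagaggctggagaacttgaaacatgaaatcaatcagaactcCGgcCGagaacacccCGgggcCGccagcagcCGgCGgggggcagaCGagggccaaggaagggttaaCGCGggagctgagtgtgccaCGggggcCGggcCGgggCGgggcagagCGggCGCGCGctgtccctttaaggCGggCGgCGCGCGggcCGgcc
The Wnt2b window holds 36 CpGs, the Wnt7a window 34, the Wif1 window 21 and the Axin2 window 24. Of all 32851 such windows, 2.58% held at least as many CpGs as Wnt2b, 3.53% as many as Wnt7a, 16.3% as many as Wif1 and 12% as many as Axin2. RefSeq windows were found for 32 of the 49 genes, 35 windows in all, with a median of 22 CpGs against 6 over all windows. Tcf/Lef heptamers, searched as CTTTGAA or as CTTTGAT or as CTTTGTT or as CTTTGTA on both strands, occurred in 4 of the 35 windows (11.4%), those of Dkk1, Fzd7, Wnt11 and Wnt5b, and in 14.8% of all windows. Those of Axin2, Wif1, Wnt2b and Wnt7a hold none, which says only that these letters are not in the 250 bases shown.

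More members were highest in paw than in DRG or cord. Of 44 tested members 20 were called higher in paw than in both other tissues (45.5%, with 32.4% of all tested genes called so), 10 were higher in DRG than in both (22.7%, background 15.9%) and 6 were higher in cord (13.6%, background 19.5%). The 10 of DRG were Wnt2b, Wnt6, Wnt9a, Fzd8, Frzb, Sfrp5, Dkk3, Rspo1, Rspo2 and Rspo4, of which all but Fzd8 encode secreted proteins. Most of the 44 tested members also do (16 ligands, 5 Sfrp genes with Frzb, 2 Dkk genes, Wif1 and 4 R-spondins). The 6 of cord were Wnt7a, Wnt7b, Wnt8b, Fzd9, Rspo3 and Lgr5. Those of paw were 9 ligands (Wnt2, Wnt3, Wnt3a, Wnt4, Wnt5a, Wnt5b, Wnt10a, Wnt10b and Wnt11), 5 Frizzled receptors (Fzd4, Fzd5, Fzd6, Fzd7 and Fzd10), both Lrp coreceptors, Sfrp1, Dkk2, Wif1 and Lgr6. Lowest of all was DRG for 13 members (29.5%, background 12.8%), cord for 12 (27.3%, background 14.8%) and paw for 6 (13.6%, background 32.9%).

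DRG and cord differed in 35 members (79.5%, with 59.6% of all tested genes called). In DRG 19 were higher (background 29%) and 16 lower (background 30.6%). Paw differed from DRG in 39 members (88.6%, background 80.5%), with 26 higher in paw (background 39.7%) and 13 lower (background 40.8%). It differed from cord in 37 members (84.1%, background 81.6%), with 27 higher (background 39.9%) and 10 lower (background 41.7%). The 84.1% called in paw against cord is close to its background. At 2-fold or more, 25 members were called in DRG against cord (background 28.4%), 33 in paw against DRG (background 53.2%) and 31 in paw against cord (background 54.4%). The median absolute log2 difference was 1.4 in DRG against cord, 2.38 in paw against DRG and 1.79 in paw against cord, and 0.54, 1.14 and 1.17 over all tested genes. Signed medians were 0.12, 0.63 and 0.90 for the members and −0.02, −0.02 and −0.03 over all genes. They were the same with Wnt3a, which had 0 reads in cord, set to its bound. Each tested member was called in at least 2 of the 3 comparisons. The share of all tested genes called in at least 2 was not counted. With 59.6%, 80.5% and 81.6% of them called in the single comparisons, this is not read as particular to the members. The comparisons share samples, so a gene that stands apart in 1 tissue counts in both of that tissue's comparisons.

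**Figure D1:**
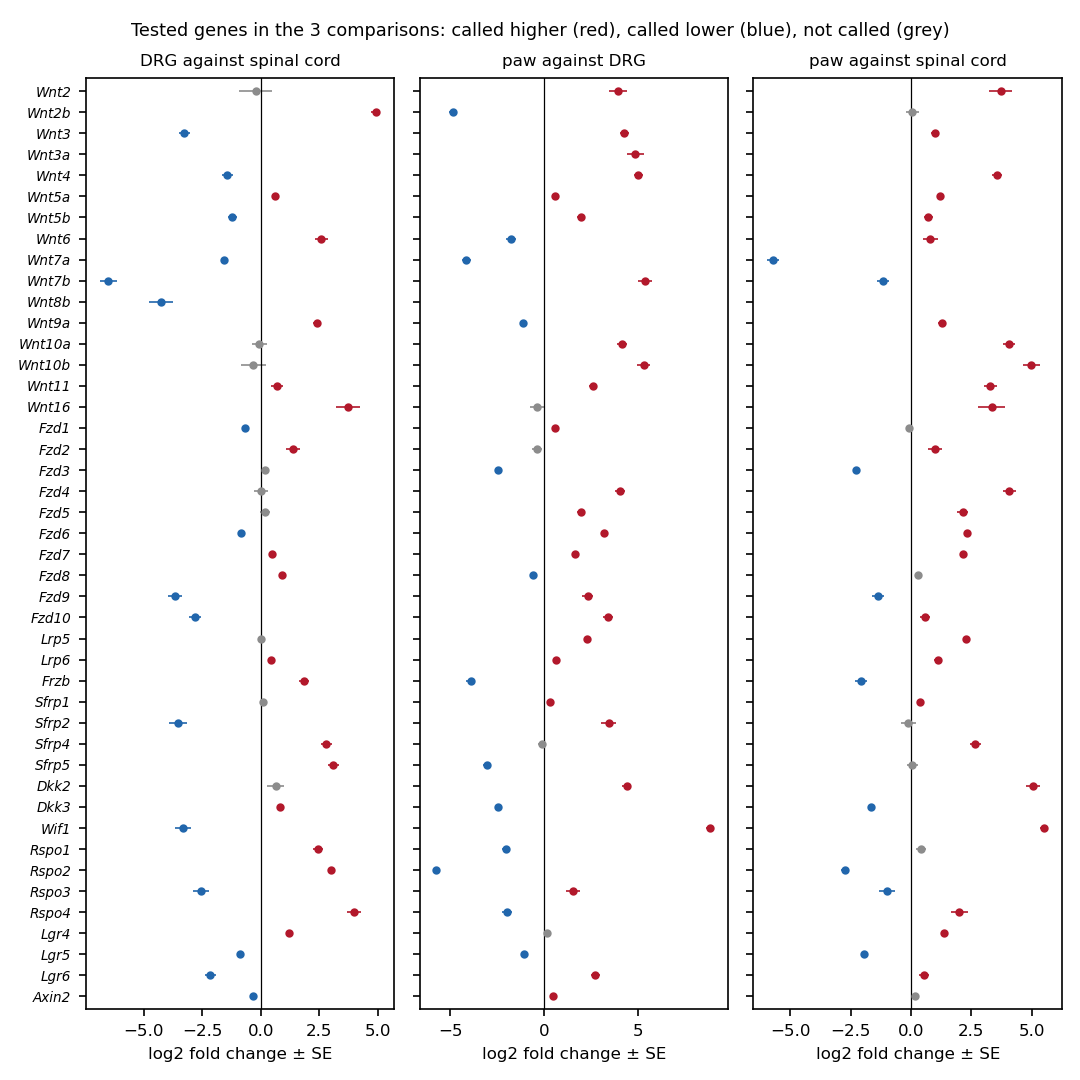
Log2 differences ± standard error (x axis) of the tested genes (y axis) in the 3 comparisons, red where called higher and blue where called lower in the first-named tissue, grey where not called. Points are left out where a tissue had 3 reads or fewer (Wnt3a and Wnt8b). In paw against DRG 26 genes were called higher and 13 lower.

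Among the ligands each tissue had its own leading genes. On a scale that allows genes to be compared, CPM per kilobase of exon, Wnt6, Wnt2b and Wnt9a led in DRG at 8.72 ± 1.78, 7.14 ± 0.532 and 6.05 ± 0.108, with Wnt6 and Wnt2b apart by less than the SD of Wnt6. Wnt7b and Wnt7a led in cord at 7.36 ± 1.85 and 5.07 ± 0.71, and their ranges of ± 1 SD overlap. Wnt4 led in paw at 30.4 ± 4.46, followed by Wnt10a, Wnt3 and Wnt5a at 5.21 ± 0.582, 5.15 ± 0.385 and 4.94 ± 0.963, whose ranges of ± 1 SD overlap. The 19 ligands summed to 30 ± 1.89 CPM per kilobase in DRG, 25.1 ± 1.41 in cord and 64.7 ± 4.76 in paw, where Wnt4 made up 47% of the sum.

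Wnt2b, a ligand of the canonical branch, was called higher in DRG than in both other tissues, with 21.7, 24.3 and 25.1 CPM for DRG, 0.80, 0.56 and 1.03 for cord and 0.658, 0.864 and 0.942 for paw (samples 1 to 3 in each case). All 3 DRG samples lay above every other sample, while cord and paw overlapped. Its level was higher in DRG than in cord, by 4.9 ± 0.20, adjusted p = 4.32e-09, and lower in paw than in DRG (−4.84 ± 0.21, adjusted p = 1.04e-09). Wnt9a, known from joint and skeletal development, stood at 19.9, 20.6 and 20 CPM for DRG, 3.1, 3.41 and 4.88 for cord and 8.44, 10.3 and 9.01 for paw, with no overlap between any tissues. It was higher in DRG than in cord, by 2.41 ± 0.17, adjusted p = 2.73e-07, and in paw lay below DRG (−1.12 ± 0.16, adjusted p = 3.88e-05) and above cord (1.29 ± 0.17, adjusted p = 2.35e-05). Wnt6 had 22.2, 16.8 and 15.2 CPM for DRG, 2.0, 2.47 and 4.76 for cord and 4.55, 5.18 and 6.18 for paw. DRG lay above both other tissues, whereas paw and cord overlapped through cord sample 3. The DRG difference from cord was 2.57 ± 0.28, adjusted p = 1.55e-05, and that of paw from DRG −1.77 ± 0.27, adjusted p = 9.42e-05. Its smaller difference between paw and cord (0.80 ± 0.30, adjusted p = 0.0264) was not called without cord 1 (adjusted p = 0.0813), cord 2 (adjusted p = 0.0999) or paw 3 (adjusted p = 0.0921), nor with paw and cord alone in the fit (adjusted p = 0.0501).

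Wnt16, a ligand known from bone, had 91 reads over DRG, 6 over cord and 55 over paw. It was called higher than in cord in DRG (3.73 ± 0.52, adjusted p = 7.99e-05) and in paw (3.34 ± 0.55, adjusted p = 0.000129). Of its 6 cord reads 4 were in sample 3, without which the differences were 4.73 and 4.37.

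Wnt7a and Wnt7b, which in the central nervous system act on blood vessels and oligodendrocyte precursors, were the cord ligands. Wnt7b was at 0.447, 0.386 and 0.248 CPM for DRG, 35.6, 41.5 and 24.7 for cord and 21.6, 11.6 and 13 for paw. Spinal cord exceeded every DRG and paw sample, and DRG was near the limit of detection with 23 reads in all. The difference of DRG from cord was −6.52 ± 0.37, adjusted p = 1.19e-07, and that of paw from cord −1.14 ± 0.25, adjusted p = 0.00133. Wnt7a had 5.27, 6.18 and 4.9 CPM for DRG, 18.2, 16.3 and 13.7 for cord and 0.299, 0.309 and 0.294 for paw. Here the low tissue was paw, with 15 reads over 3 libraries, and no tissues overlapped. Wnt7a was lower in paw than in cord (−5.71 ± 0.23, adjusted p = 5.15e-10) and than in DRG (−4.15 ± 0.24, adjusted p = 1.51e-08), and lower in DRG than in cord (−1.56 ± 0.15, adjusted p = 4.78e-06). The pair thus differed in which tissue was lowest. Wnt8b, a ligand of the developing forebrain, had 80 reads over cord, 4 over DRG and 1 over paw. It was lower in DRG than in cord (−4.28 ± 0.52, adjusted p = 2.87e-05), and the ratio of cord to paw was 67.8 with a 95% counting interval of 11.8 to 2710.

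Wnt4, a ligand best known from kidney and ovary development, was the most abundant ligand of paw, with 5.76, 3.43 and 2.62 CPM for DRG, 9.8, 10.6 and 11.9 for cord and 148, 124 and 111 for paw. Every paw sample lay far above the other tissues, and DRG was lowest. Wnt4 was higher in paw, against DRG by 5.01 ± 0.25, adjusted p = 8.24e-09, and against cord by 3.56 ± 0.22, adjusted p = 6.16e-08, and lower in DRG than in cord (−1.44 ± 0.24, adjusted p = 0.000383). Wnt3, a canonical ligand, stood at 0.581, 1.01 and 0.842 CPM for DRG, 7.0, 9.84 and 6.89 for cord and 16.8, 14.5 and 16.3 for paw, again in the order paw, cord, DRG with no overlap. Its differences were 4.28 ± 0.23, adjusted p = 7.39e-09 in paw against DRG and 1.0 ± 0.18, adjusted p = 0.00029 in paw against cord. Wnt5b followed the same order (1.52 ± 0.109 CPM for DRG, 3.54 ± 0.513 for cord and 5.84 ± 0.736 for paw). Wnt10a, a gene of teeth, hair and sweat glands, was at 0.983, 0.627 and 0.545 CPM for DRG, 0.80, 0.933 and 0.517 for cord and 11.6, 12.5 and 14.4 for paw. Wnt10b, which restrains fat cell formation, was at 0.268, 0.145 and 0.148 CPM for DRG, 0.15, 0.14 and 0.459 for cord and 7.6, 8.39 and 7.36 for paw. Both genes were near 1 CPM or below outside paw. Wnt10a was higher in paw by 4.14 ± 0.25, adjusted p = 2.19e-08 against DRG and 4.07 ± 0.25, adjusted p = 2.42e-08 against cord, and Wnt10b by 5.31 ± 0.35, adjusted p = 5e-08 and 4.98 ± 0.34, adjusted p = 6.9e-08. Without cord 3, which holds 8 of the 14 cord reads of Wnt10b, the latter was 5.72.

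Wnt11 and Wnt5a, both ligands of the branches without beta-catenin, were also highest in paw. Wnt11 was at 1.7 ± 0.455 CPM for DRG, 1.05 ± 0.304 for cord and 10.3 ± 1.11 for paw, with differences of 2.61 ± 0.23, adjusted p = 7.47e-07 (paw against DRG) and 3.29 ± 0.25, adjusted p = 1.58e-07 (paw against cord). Between DRG and cord its call (0.68 ± 0.27, adjusted p = 0.0495) was lost under 16 of the 20 alternatives, among them DESeq2 (adjusted p = 0.0558) and leaving out DRG 2, cord 2, cord 3 or any 1 paw library (adjusted p = 0.0595 to 0.188). Wnt5a was more even, at 24.4, 22.5 and 22 CPM for DRG, 14.2, 13.3 and 17.6 for cord and 42.3, 32.8 and 29.1 for paw. No tissues overlapped, and the differences were 0.59 ± 0.15, adjusted p = 0.00286 in paw against DRG, 1.21 ± 0.15, adjusted p = 1.34e-05 in paw against cord and 0.62 ± 0.15, adjusted p = 0.00416 in DRG against cord. On leaving out DRG 1 and DRG 2, which leaves a single DRG sample, the last was 0.56.

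Low ligands remain. Wnt2 was at 0.172 ± 0.0649 CPM for DRG, 0.21 ± 0.124 for cord and 2.77 ± 1.29 for paw and was higher in paw, against DRG by 3.95 ± 0.49, adjusted p = 1.34e-05 and against cord by 3.72 ± 0.48, adjusted p = 1.96e-05. Wnt3a, a ligand that patterns the dorsal neural tube in embryos, had 123 reads over paw, 5 over DRG and 0 over cord. It was higher in paw, against DRG by 4.85 ± 0.45, adjusted p = 4.54e-06 and at least 48.4-fold higher than in cord, taking 3 reads over the group as the floor. Its call in DRG against cord (adjusted p = 0.0294) sets 5 reads against 0, at least 1.55-fold, and was lost with DESeq2 (adjusted p = 0.0511) and on leaving out DRG 1 or DRG 2 (adjusted p = 0.0608 and 0.063) or any 1 cord sample (adjusted p = 0.0531 to 0.0682). Wnt1, Wnt8a and Wnt9b did not pass the filter. Wnt9b had 4, 14 and 34 reads over DRG, cord and paw, and Wnt1 0, 0 and 7 reads. Wnt8a had 1 read in paw 1 and 0 in all other libraries.

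**Figure D2:**
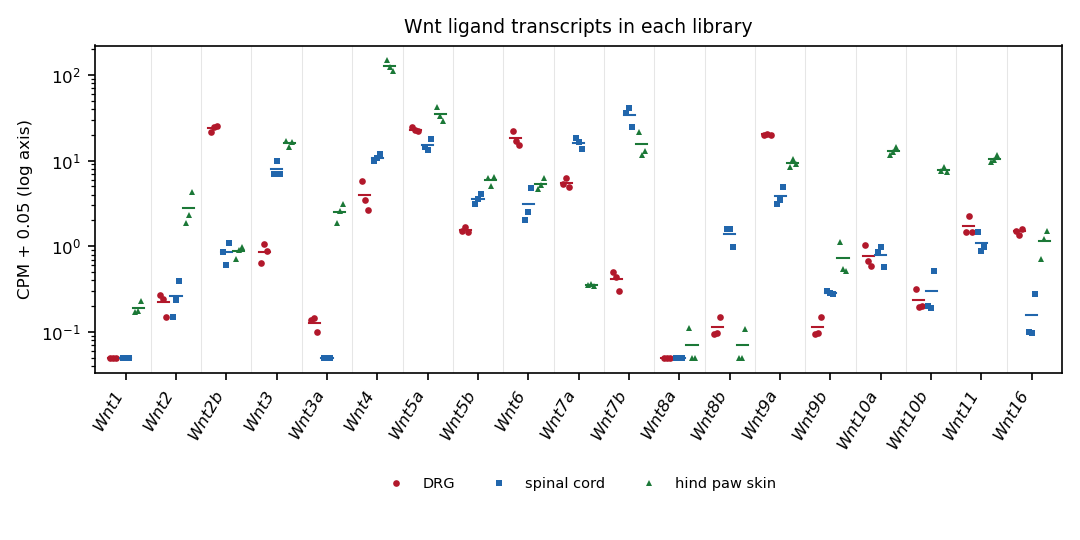
CPM plus 0.05 (log axis) of the 19 Wnt ligands (x axis) in each of the 9 libraries, with a bar at the mean of each tissue. Points at the bottom of the axis are 0 reads. Wnt2b, Wnt6 and Wnt9a are highest in DRG, Wnt7a and Wnt7b in cord, and Wnt4 reaches 111 to 148 CPM in paw.

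Secreted Frizzled-related proteins were most abundant in DRG. The 4 Sfrp genes and Frzb summed to 163 ± 24.4 CPM per kilobase in DRG, 39.9 ± 6.26 in cord and 36.8 ± 1.54 in paw, and Sfrp5 made up 62.4% of the DRG sum. Sfrp5 was at 221, 206 and 153 CPM for DRG, 17.7, 20.9 and 29.9 for cord and 20.2, 21.9 and 29.1 for paw. DRG exceeded every other sample widely, and cord and paw overlapped. It was higher in DRG than in cord, by 3.09 ± 0.23, adjusted p = 9.87e-07, lower in paw than in DRG (−3.03 ± 0.23, adjusted p = 3.78e-07), and between paw and cord the difference was 0.06 ± 0.22, adjusted p = 0.808. Frzb, a binder first known from cartilage, was at 166, 133 and 129 CPM for DRG, 32.4, 36.1 and 51.7 for cord and 6.46, 9.63 and 12.3 for paw, in the order DRG, cord, paw without overlap. Its differences were 1.84 ± 0.23, adjusted p = 5.99e-05 in DRG against cord and −2.08 ± 0.24, adjusted p = 1.7e-05 in paw against cord. Sfrp4 had a different low tissue, with 18.5, 19.3 and 14 CPM for DRG, 2.1, 1.91 and 3.5 for cord and 17.7, 15.8 and 13.8 for paw. Spinal cord was lowest, DRG and paw overlapped, and the differences from cord were 2.8 ± 0.23, adjusted p = 8.89e-07 for DRG and 2.67 ± 0.23, adjusted p = 4.42e-07 for paw.

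Sfrp2 had the opposite pattern to Sfrp5, with 0.357, 1.16 and 0.297 CPM for DRG, 7.6, 7.84 and 5.86 for cord and 5.87, 8.46 and 5.3 for paw. DRG was lowest, at 38 reads in all, of which 24 were in sample 2. Sfrp2 was lower in DRG than in cord (−3.55 ± 0.39, adjusted p = 1.44e-05) and higher in paw than in DRG (3.43 ± 0.39, adjusted p = 8.23e-06). Without DRG 2 these were −4.40 and 4.30. Sfrp1 was nearly level across tissues, at 50.6 ± 1.78 CPM for DRG, 48.1 ± 1.07 for cord and 62.2 ± 4.98 for paw. It was called higher in paw than in DRG (0.30 ± 0.09, adjusted p = 0.00821) and than in cord (0.37 ± 0.09, adjusted p = 0.00204). The DRG difference from cord was 0.07 ± 0.09, adjusted p = 0.489. On leaving out DRG 1 and DRG 2, which leaves a single DRG sample, the paw difference from DRG was 0.27.

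Wif1, a Wnt-binding inhibitor, was a gene of paw. It was at 0.134, 0.145 and 0.099 CPM for DRG, 1.55, 1.03 and 1.44 for cord and 53.3, 68.1 and 59.4 for paw. The paw samples lay above all others, cord was next, and DRG held 8 reads in all. Wif1 was higher in paw, against DRG by 8.83 ± 0.22, adjusted p = 2.13e-11 and against cord by 5.5 ± 0.17, adjusted p = 5.6e-11, and lower in DRG than in cord (−3.33 ± 0.33, adjusted p = 4.78e-06). Dkk2, an antagonist of the coreceptors, was likewise a paw gene, with 0.626, 1.06 and 0.545 CPM for DRG, 0.60, 0.56 and 0.23 for cord and 15.1, 15.8 and 16.3 for paw. DRG and cord overlapped at low levels, and the paw differences were 4.39 ± 0.26, adjusted p = 2.07e-08 and 5.04 ± 0.28, adjusted p = 1.06e-08. Dkk3, a divergent member of the family, had the reverse order, with 262, 266 and 253 CPM for DRG, 136, 149.6 and 164 for cord and 49.1, 50.6 and 44.4 for paw. No tissues overlapped, and the differences were 0.80 ± 0.09, adjusted p = 1.94e-05 in DRG against cord, −2.44 ± 0.10, adjusted p = 6.08e-10 in paw against DRG and −1.64 ± 0.10, adjusted p = 1.47e-08 in paw against cord. Per kilobase Dkk3 was exceeded in DRG by Sfrp5 alone of the 49 genes (77.5 ± 2.03) and by none in cord (44.6 ± 4.12). Dkk1 was not tested. It had 41 reads over cord, 2 over DRG and 1 over paw, ratios of 22.0 (95% counting interval 5.73 to 188) and 34.8 (5.90 to 1410). Dkk4 had 0 reads in every library, which allows at most 0.134 to 0.185 CPM.

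The R-spondins, which amplify Wnt signals, were mostly genes of DRG. They summed to 37.3 ± 1.84 CPM per kilobase there, against 6.81 ± 0.852 in cord and 5.43 ± 0.762 in paw. Rspo2 was at 57.2, 68.7 and 72.9 CPM for DRG, 8.55, 8.44 and 7.81 for cord and 1.08, 1.23 and 1.41 for paw. The 3 tissues were widely separated, with differences of 3.0 ± 0.12, adjusted p = 3.56e-09 in DRG against cord, −5.73 ± 0.15, adjusted p = 2.73e-11 in paw against DRG and −2.73 ± 0.16, adjusted p = 1.56e-08 in paw against cord. Rspo1 was at 27.7, 24.1 and 21 CPM for DRG, 3.7, 3.59 and 6.2 for cord and 5.39, 6.42 and 6.01 for paw. DRG lay above both other tissues, by 2.44 ± 0.20, adjusted p = 1.25e-06 over cord, and paw lay below DRG (−2.03 ± 0.20, adjusted p = 1.88e-06). Paw and cord overlapped (0.41 ± 0.21, adjusted p = 0.0955), and without cord 3 this difference was called (0.74, adjusted p = 0.00246). Rspo4, known from nail formation, was at 6.97, 12.6 and 8.71 CPM for DRG, 0.50, 0.70 and 0.574 for cord and 1.74, 2.96 and 2.47 for paw, in the order DRG, paw, cord. Its differences were 3.97 ± 0.31, adjusted p = 6.76e-07 in DRG against cord and −1.97 ± 0.26, adjusted p = 2.46e-05 in paw against DRG.

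Rspo3, which also acts in blood vessels, went the other way. It was at 0.804, 0.434 and 1.34 CPM for DRG, 4.7, 4.8 and 5.68 for cord and 1.74, 2.41 and 3.42 for paw, highest in cord and lowest in DRG. The differences were −2.55 ± 0.35, adjusted p = 6.97e-05 in DRG against cord, 1.55 ± 0.37, adjusted p = 0.00209 in paw against DRG and −1.0 ± 0.32, adjusted p = 0.0116 in paw against cord. The last was not called without paw 1 (−0.80, adjusted p = 0.0522). The paw difference from DRG was 0.90 on leaving out DRG 1 and DRG 2, which leaves a single DRG sample.

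**Figure D3:**
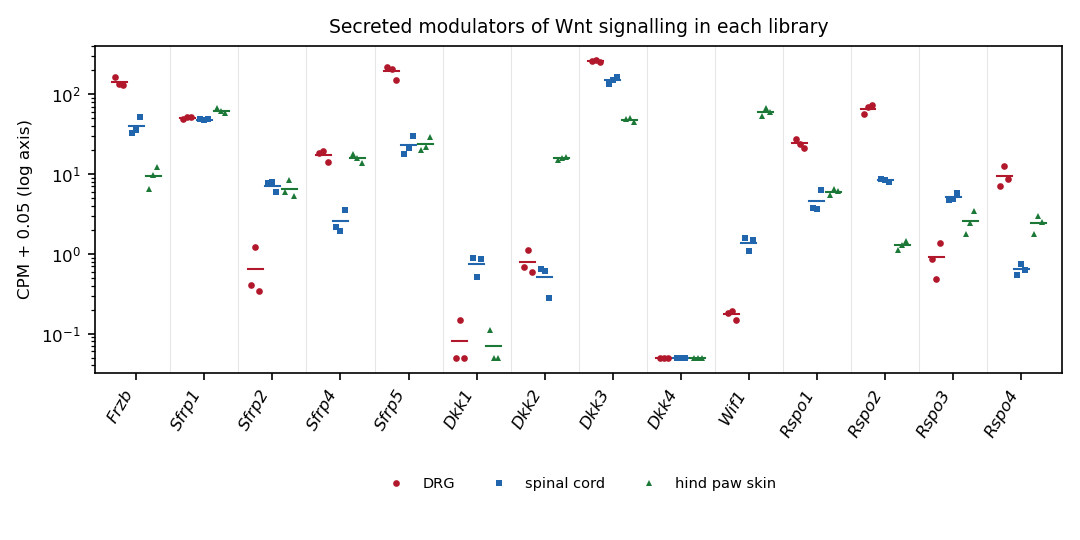
CPM plus 0.05 (log axis) of the secreted modulators (x axis) in each library, with a bar at the mean of each tissue. Sfrp5, Frzb, Dkk3, Rspo1, Rspo2 and Rspo4 are highest in DRG, Rspo3 in cord, and Wif1 and Dkk2 in paw. Dkk4 has 0 reads throughout.

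The Lgr receptors of the R-spondins were highest in cord (Lgr5) and paw (Lgr6), and none was highest in DRG. Lgr4, the broadly expressed one, was at 75, 60 and 78.4 CPM for DRG, 29.7, 30.2 and 34 for cord and 90.2, 82.3 and 68.7 for paw. It was low in cord and overlapped between DRG and paw. DRG exceeded cord by 1.19 ± 0.13, adjusted p = 1.31e-05 and paw exceeded it by 1.36 ± 0.13, adjusted p = 1.47e-06. Paw against DRG gave 0.18 ± 0.13, adjusted p = 0.224, which was called with upper quartile factors (0.30, adjusted p = 0.0447). Lgr5, a stem cell marker of gut and hair follicle, was highest in cord, with 18.4, 16.3 and 18.9 CPM for DRG, 32.3, 31.8 and 34.8 for cord and 9.46, 9.5 and 6.77 for paw. No tissues overlapped, and the differences were −0.89 ± 0.13, adjusted p = 0.000116 in DRG against cord, −1.06 ± 0.14, adjusted p = 2.04e-05 in paw against DRG and −1.94 ± 0.14, adjusted p = 8.59e-08 in paw against cord. Lgr6, a marker of skin stem cells, was highest in paw at 6.0 ± 0.768 CPM against 4.08 ± 0.361 in cord and 0.909 ± 0.261 in DRG. Its DRG difference from cord was −2.17 ± 0.24, adjusted p = 1.13e-05. The small paw difference from cord (0.55 ± 0.20, adjusted p = 0.0238) was not called without paw 1 (adjusted p = 0.0674) or paw 2 (adjusted p = 0.0757).

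Frizzled receptors were most abundant in paw. The 10 genes summed to 62.2 ± 2.11 CPM per kilobase in paw, 35.5 ± 2.26 in cord and 29.8 ± 3.72 in DRG. Fzd4, the receptor for the vessel-forming ligand Norrin, was at 3.89, 1.88 and 3.96 CPM for DRG, 3.25, 3.55 and 2.93 for cord and 39.6, 61.7 and 61.5 for paw. It was higher in paw by 4.06 ± 0.26, adjusted p = 9.15e-08 against DRG and by 4.06 ± 0.27, adjusted p = 9.13e-08 against cord, and DRG and cord overlapped (adjusted p = 1). Fzd6, which orients hair follicles, was at 7.2, 6.42 and 6.68 CPM for DRG, 12, 11.8 and 13.4 for cord and 65.7, 56.2 and 62 for paw, in the order paw, cord, DRG without overlap. Its paw differences were 3.18 ± 0.11, adjusted p = 1.74e-10 and 2.31 ± 0.10, adjusted p = 1.48e-09. Fzd7 was at 21.3 ± 2.61 CPM for DRG, 15.2 ± 1.5 for cord and 67.8 ± 0.948 for paw, and Fzd5 at 3.85 ± 1.06 CPM for DRG, 3.45 ± 0.463 for cord and 15.2 ± 2.84 for paw. Both were called higher in paw than in each other tissue, Fzd7 by 1.67 ± 0.11 and 2.16 ± 0.11 and Fzd5 by 1.98 ± 0.22 and 2.14 ± 0.22 (against DRG and cord). Fzd10 was at 0.862 ± 0.193 CPM for DRG, 6.14 ± 1.59 for cord and 9.2 ± 1.8 for paw. Its call in paw against cord (0.58 ± 0.22, adjusted p = 0.0308) was lost without cord 3 (adjusted p = 0.0826) or paw 3 (adjusted p = 0.141).

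Of the other Frizzled genes, Fzd3 was lowest in paw, Fzd9 highest in cord, Fzd8 highest in DRG and Fzd1 lowest in DRG. Fzd3, needed for axon guidance in the nervous system, was at 98.5, 74 and 88.7 CPM for DRG, 76.4, 65.6 and 87.7 for cord and 15.7, 16.4 and 15.4 for paw. Paw was far below both, with differences of −2.46 ± 0.14, adjusted p = 1.1e-08 from DRG and −2.27 ± 0.14, adjusted p = 1.96e-08 from cord, while DRG and cord overlapped (adjusted p = 0.227, or 0.00653 on leaving out DRG 2 and cord 3). Fzd9 was at 0.76, 1.21 and 0.545 CPM for DRG, 11.7, 13.1 and 7.41 for cord and 3.77, 4.07 and 4.77 for paw, highest in cord. The difference of DRG from cord was −3.67 ± 0.30, adjusted p = 9.79e-07, and that of paw from cord −1.35 ± 0.25, adjusted p = 0.000383. Paw lay above DRG (2.32 ± 0.31, adjusted p = 2.7e-05). Fzd8 was highest in DRG (14.4 ± 1.02 CPM for DRG, 7.66 ± 0.296 for cord and 9.4 ± 1.51 for paw), by 0.91 ± 0.14, adjusted p = 0.000167 over cord. Paw against DRG gave −0.61 ± 0.14, adjusted p = 0.00155, or −0.52 on leaving out DRG 1 and DRG 2, which leaves a single DRG sample. Paw against cord gave 0.30 ± 0.14, adjusted p = 0.0737, which was called without paw 2 (0.41, adjusted p = 0.0297) and with upper quartile factors (0.37, adjusted p = 0.0359). Fzd1 was at 32.4 ± 1.14 CPM for DRG, 52.7 ± 8.62 for cord and 49.3 ± 2.86 for paw, with differences of −0.70 ± 0.12, adjusted p = 0.000381 in DRG against cord and 0.60 ± 0.12, adjusted p = 0.000616 in paw against DRG, and of −0.10 ± 0.12, adjusted p = 0.467 in paw against cord. Per kilobase it led the family in both nervous tissues (7.72 ± 0.273 in DRG and 12.6 ± 2.06 in cord), and Fzd7 led in paw (14.9 ± 0.209). Ranges of ± 1 SD overlapped with those of Fzd3 in DRG (6.84 ± 0.97) and of Fzd6 in paw (14.0 ± 1.09).

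The value of Fzd2 moved with the DRG sample. It was at 26.4, 16.4 and 11.1 CPM for DRG, 6.55, 7.14 and 7.23 for cord and 10.3, 15.6 and 16 for paw, with DRG sample 1 well above samples 2 and 3. DRG was called higher than cord (1.37 ± 0.29, adjusted p = 0.00203). On leaving out DRG 1 and DRG 2, which leaves a single DRG sample, this difference was 0.68. Paw against DRG (−0.37 ± 0.28, adjusted p = 0.243) was called without DRG 3 (−0.62, adjusted p = 0.0294), and without DRG 1 was 0.01, adjusted p = 0.955.

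Both coreceptors were highest in paw. Lrp5 was at 26.4, 23.1 and 20.4 CPM for DRG, 24.4, 20.3 and 24.4 for cord and 126, 100.4 and 112 for paw, and was higher in paw by 2.27 ± 0.13, adjusted p = 1.29e-08 against DRG and by 2.29 ± 0.13, adjusted p = 1.11e-08 against cord. DRG and cord overlapped (adjusted p = 0.909). Lrp6 differed less, at 78.3, 59.3 and 75.2 CPM for DRG, 50.4, 46.4 and 59.2 for cord and 119, 115 and 101 for paw. Its paw differences were 0.66 ± 0.13, adjusted p = 0.000544 and 1.1 ± 0.13, adjusted p = 8.04e-06. DRG exceeded cord by 0.45 ± 0.13, adjusted p = 0.0107, a call lost without cord 2 (0.36, adjusted p = 0.0638). Per kilobase Lrp6 lay above Lrp5 in DRG (7.57 ± 1.09 against 3.88 ± 0.497) and in cord (5.55 ± 0.70 against 3.83 ± 0.388), and below it in paw (11.9 ± 1.0 against 18.8 ± 2.11).

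Axin2, the feedback inhibitor commonly read as a canonical target, spanned 18.8 to 28.0 CPM over the 9 libraries. It was at 18.8, 19.9 and 19.2 CPM for DRG, 24.2, 22 and 26.2 for cord and 26.9, 27 and 28 for paw. DRG was lowest, without overlap, with a difference of −0.32 ± 0.10, adjusted p = 0.0123 from cord, and paw lay above DRG by 0.50 ± 0.10, adjusted p = 0.000455. The DRG difference from cord was not called on leaving out DRG 1 and cord 3 (−0.23, adjusted p = 0.116). On leaving out DRG 1 and DRG 2, which leaves a single DRG sample, the DRG difference from cord was −0.32. Paw against cord was 0.18 ± 0.09, adjusted p = 0.102. That difference was called without cord 3 (0.28, adjusted p = 0.0223) and with upper quartile factors (0.25, adjusted p = 0.0299).

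**Figure D4:**
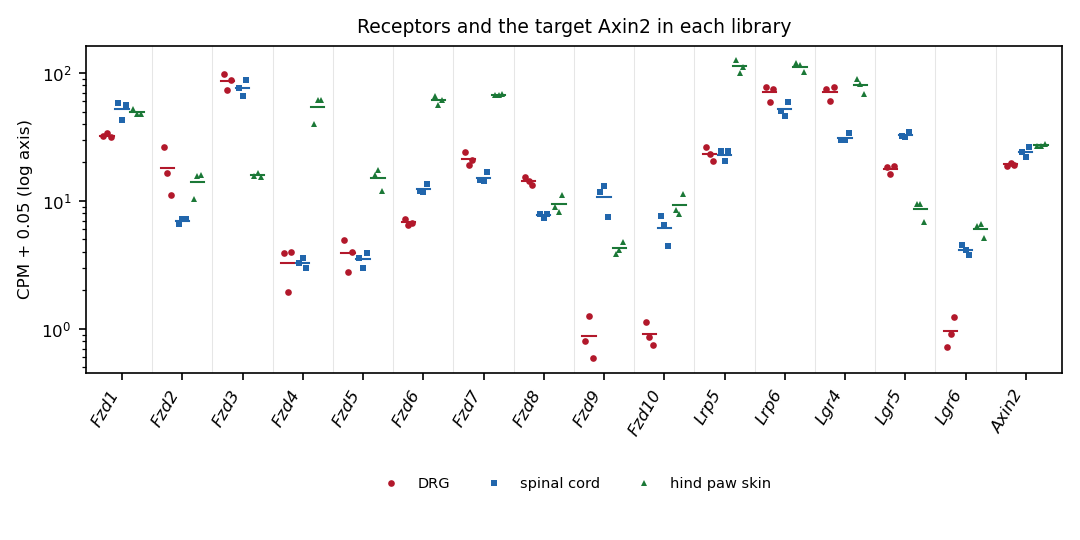
CPM plus 0.05 (log axis) of Frizzled receptors, coreceptors, Lgr receptors and Axin2 (x axis) in each library, with a bar at the mean of each tissue. Fzd4, Fzd6, Fzd7, Lrp5 and Lrp6 are highest in paw, Fzd9 and Lgr5 in cord, and Axin2 lies between 18.8 and 28.0 CPM in all 9 libraries.

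Genes of the pathway outside the set were read from lists of 62 genes, of which 60 were tested. In all, 20 were called higher and 25 lower in DRG than in cord (75% called, background 59.6%), 29 higher and 24 lower in paw than in DRG (88.3%, background 80.5%), and 28 higher and 27 lower in paw than in cord (91.7%, background 81.6%). Most other targets and feedback genes were lower in DRG than in the other tissues. Of 7 tested genes of that list none was higher and 6 were lower in DRG than in cord (median −0.63, with 30.6% of all genes lower), and 6 were higher and 1 lower in paw than in DRG (median 2.41, with 39.7% of all genes higher). Between paw and cord 4 were higher and 2 lower (median 1.42), and the 85.7% called is close to the background of 81.6%. Rnf43, a ligase that removes Frizzled receptors and is itself a target, was at 0.476 ± 0.155 CPM for DRG, 5.3 ± 0.868 for cord and 22.1 ± 4.43 for paw, with differences of −3.47 ± 0.27, adjusted p = 7.24e-07 in DRG against cord, 5.52 ± 0.26, adjusted p = 2.47e-09 in paw against DRG and 2.05 ± 0.20, adjusted p = 1.27e-06 in paw against cord. Notum, an enzyme that strips the lipid from Wnts, was lower in DRG than in cord (−3.65 ± 0.29, adjusted p = 8.88e-07). Nkd2 was higher in paw, against DRG by 2.71 ± 0.17, adjusted p = 2.7e-08 and against cord by 2.07 ± 0.16, adjusted p = 2.1e-07, whereas its relative Nkd1 was lower in paw (−0.65 ± 0.10, adjusted p = 6.72e-05 and −0.94 ± 0.10, adjusted p = 2.5e-06). Ccnd1, a cell cycle gene, stood at 79.8 ± 5.9 CPM for DRG, 77.4 ± 5.61 for cord and 207 ± 22 for paw. It was called in paw against DRG (1.38 ± 0.10, adjusted p = 1.65e-07) and against cord (1.42 ± 0.10, adjusted p = 1.17e-07), and not between DRG and cord (0.05 ± 0.10, adjusted p = 0.727). Sp5 did not pass the filter on low counts.

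The 2 genes of Wnt secretion differed in direction in the comparisons with paw. Wls, which carries Wnts to the cell surface, was higher in paw, against DRG by 1.42 ± 0.09, adjusted p = 4.04e-08 and against cord by 1.15 ± 0.09, adjusted p = 2.32e-07. Porcn, which adds the lipid, was lower in paw (−1.14 ± 0.15, adjusted p = 1.86e-05 and −1.49 ± 0.15, adjusted p = 1.73e-06). In DRG against cord both differences were negative. Wls was called lower in DRG (−0.27 ± 0.09, adjusted p = 0.025), and Porcn was not called (−0.35 ± 0.14, adjusted p = 0.0506). Further receptors and inhibitors had 7 of 14 tested genes higher and 4 lower in DRG than in cord (78.6% called, background 59.6%), 8 higher and 5 lower in paw than in DRG (92.9%, background 80.5%), and 7 and 5 in paw against cord (85.7%, close to the background of 81.6%). The secreted inhibitor Sostdc1 was higher in DRG than in cord, by 2.2 ± 0.27, adjusted p = 6.55e-05 and the glypican Gpc3 by 2.08 ± 0.37, adjusted p = 0.00148. Lrp4, a receptor of Sostdc1 and agrin, was higher in paw, against DRG by 2.95 ± 0.21, adjusted p = 2.75e-07 and against cord by 2.05 ± 0.21, adjusted p = 3.96e-06. Ror1, a receptor for Wnt5a, was higher in paw than in cord, by 5.07 ± 0.38, adjusted p = 1.45e-07. Ror2, of the same list, went the other way. It was lower in paw than in cord (−0.54 ± 0.15, adjusted p = 0.00701) and than in DRG (−1.44 ± 0.15, adjusted p = 3.4e-06).

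Of the transducers inside the cell, 0 of 15 were called at 2-fold or more between DRG and cord (6 were higher and 5 lower at any size, 73.3% against a background of 59.6%). The share of all genes at 2-fold or more was 28.4%. In paw against DRG 4 were higher and 7 lower (73.3% called, background 80.5%), with 6 at 2-fold or more (background 53.2%). In paw against cord 6 were higher and 9 lower (100%, background 81.6%), with 5 at 2-fold or more (background 54.4%). Ctnnb1, beta-catenin itself, was at 664 ± 29.7 CPM for DRG, 517 ± 25.6 for cord and 696 ± 51 for paw. Its level exceeded that of cord in DRG (0.36 ± 0.10, adjusted p = 0.00938) and in paw (0.43 ± 0.10, adjusted p = 0.00205), and paw against DRG gave 0.07 ± 0.10, adjusted p = 0.548. Apc2, a neuronal relative of the scaffold Apc, was lower in paw than in DRG (−7.45 ± 0.24, adjusted p = 1.67e-10) and than in cord (−7.34 ± 0.24, adjusted p = 1.61e-10). Ctnnbip1, which blocks the binding of beta-catenin to Tcf factors, was higher in paw, against DRG by 2.74 ± 0.12, adjusted p = 1.72e-09. Of 12 nuclear partners 5 were higher and 5 lower in DRG than in cord (83.3% called, background 59.6%), 4 and 6 in paw against DRG (83.3%, close to the background of 80.5%), and 5 and 6 in paw against cord (91.7%, background 81.6%). Lef1, a DNA-binding partner of beta-catenin, was lower in paw than in cord (−3.78 ± 0.21, adjusted p = 8.21e-09). The corepressor Tle2 was lower in paw than in DRG (−1.93 ± 0.10, adjusted p = 3.9e-09) and than in cord (−2.37 ± 0.10, adjusted p = 6.07e-10), while Tle3 was higher (0.74 ± 0.10, adjusted p = 3.47e-05 and 1.01 ± 0.10, adjusted p = 2.28e-06).

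Some members varied between samples of a tissue together with markers of other cells. At 5 CPM or more, the median coefficient of variation was 12.3% over 24 members in DRG, 10.6% over 25 in cord and 12.3% over 34 in paw. Over all tested genes at 5 CPM or more it was 8.92%, 9.04% and 8.59%, without matching these genes to the levels of the members. In cord the widest were Sfrp5, Fzd9, Fzd10 and Frzb. Sample 3 was the highest of the cord samples for 15 of the 19 members called higher in DRG than in cord, and for 6 of the 16 called lower. The matching shares over all tested genes were not counted, so these counts are not read as particular to the members. Its Schwann and satellite glia sum is given above, its sum of 6 fibroblast markers was 1158 CPM against 485 and 385 CPM in samples 1 and 2, and its sum of 7 meninges and choroid markers 47.2 CPM against 22.2 and 22.7 CPM. No gene of these 3 lists was at 0 reads in cord. Wnt7b and Fzd9 were lowest in sample 3, where the sum of 6 oligodendrocyte markers was 2217 CPM against 2614 and 2790 CPM. Sums of 5 astrocyte markers (3565, 3558 and 3299 CPM in samples 1 to 3) and 5 spinal neuron markers (669, 695 and 607 CPM) were also lowest there. That of 6 endothelial markers was highest there (222, 242 and 290 CPM). The part of these cells in the members' values was not tested.

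In DRG, sample 1 was the highest for all 6 fibroblast markers (sums of 3310, 2228 and 2249 CPM) and all 7 meninges and choroid markers (sums of 62.2, 41.6 and 40.4 CPM). Of the 44 tested members 19 were highest there, among them Fzd2, Wnt4 and Wnt6, and 10 were lowest. Rspo4 was highest in sample 2. That sample was also highest in the sums of muscle markers, given above, and of 5 marrow neutrophil markers (97.1, 223 and 81.8 CPM), and in 7 of 9 sensory neuron markers (sums of 3774, 4235 and 4456 CPM). In paw, sample 1 was the highest for 6 of 7 keratinocyte markers (sums of 52270, 34800 and 36990 CPM) and all 5 hair follicle markers (sums of 73.9, 24.7 and 28.8 CPM). Of the 44 tested members 11 were highest in that sample, among them Wnt4, Wnt5a, Wnt7b, Lrp5 and Lgr4, and 22 were lowest there, among them Fzd4, Frzb, Wnt2 and Wnt10a. In the same tissue the sum of 6 endothelial markers was 368, 431 and 442 CPM in paw samples 1 to 3. Whether these cells set the spread was not tested. For the counts of members highest or lowest in a DRG or paw sample, the shares over all tested genes were not counted.

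**Figure D5:**
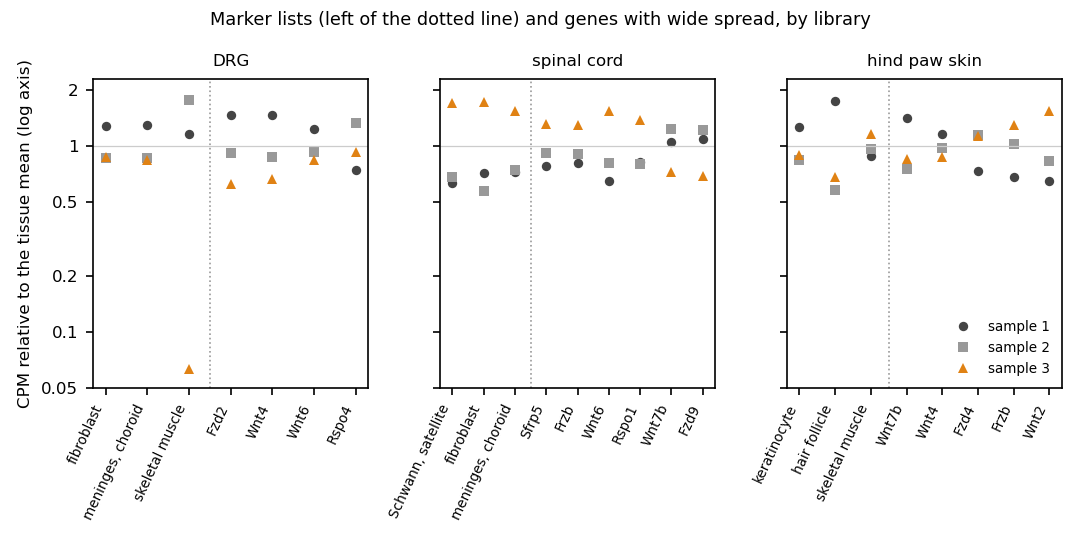
CPM in each sample divided by the mean of its tissue (log axis), for summed marker lists (left of the dotted line) and for members with a wide spread (right of it). In cord, sample 3 is highest for Schwann and satellite glia, fibroblast and meninges markers and for Sfrp5, Frzb, Wnt6 and Rspo1, and lowest for Wnt7b and Fzd9. In paw, sample 1 is highest for keratinocyte and hair follicle markers, Wnt7b and Wnt4.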

How the data were processed

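Per the labels' protocols, mRNA selected with oligo-dT from about 500 ng of RNA went into a stranded (dUTP) kit and was read as 50 bp single ends. The tools were bcl2fastq, TopHat2 and HTSeq, with the mm9 build, per the submitters' processing notes. The sources used here do not state versions, gene models or strand setting, so 7 members whose exons overlap an opposite-strand gene in GENCODE M21 are less certain (Axin2, Fzd5, Fzd6, Rspo3, Sfrp2, Wnt11 and Wnt7b).

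The authors deposited whole-number read counts per gene for each library. The 5 summary rows (42.9 to 59.3% of a file's total, mostly reads with several alignments, which no gene received) stayed out of library sizes and tests. edgeR 4.0.16 in R 4.3.3 fitted all 9 libraries by tissue after filterByExpr and TMM scaling, with glmQLFit (robust), 6 residual degrees of freedom and Benjamini-Hochberg adjustment over 16091 genes. CPM uses TMM library sizes. Standard errors are the fold change over the square root of F. Levels per kilobase use the union of coding-transcript exons in GENCODE M21 (GRCm38), an approximation of the authors' mm9 models. Floors (3 reads) and intervals cover counting error only. No replicate pair was a repeat deposit (chi-square per degree of freedom 7.30 to 36.7). The fit was also run on simulated counts. Few genes differed between tissues there, unlike in these data, so that run does not test the scaling under these conditions.

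The members and gene lists were chosen with earlier results of these data known. By rule, every member could be named, with tests where a tissue had 1 CPM or more. Pathway lists gave up to 4 genes per comparison (the 2 largest called changes at 5 CPM or more, the most abundant gene called in the opposite direction, and the most abundant uncalled gene), and values of these genes in other comparisons were added. Ror2 was named outside this rule, beside Ror1. DESeq2 1.42.0, limma 3.58.1 (voom), other scalings and filters, a replicate block, and fits without single or paired libraries were alternatives. The fit without DRG 1 and DRG 2 keeps a single DRG sample. For single members only its effect sizes are given, though its calls enter the counts over alternatives.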

Additional observations from a re-analysis of the deposited data

How the results depend on the processing

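The 18 counts of called genes were recomputed under 20 alternatives, and all 360 values lay within 1.5 times the reported ones. With 1 library left out, members higher in paw than in both other tissues numbered 19 to 21, those of DRG 10 to 11, those of spinal cord 6 to 7, and members lowest in spinal cord 8 to 12. Of 2633 values of single members under the alternatives, 2540 kept their direction and side of the threshold, 46 lost the call, 12 gained it and 35 changed sign. All changes of sign were of differences not called as reported. With 1 library left out, the genes that changed sign ranged as follows: in DRG against spinal cord, Wnt10a (−0.37 to 0.11), Wnt10b (−0.68 to 0.38), Wnt2 (−0.55 to 0.26), Fzd4 (−0.16 to 0.28), Fzd5 (−0.04 to 0.36) and Lrp5 (−0.08 to 0.11), in paw against DRG Fzd2 (−0.62 to 0.01), and in paw against spinal cord Wnt2b (−0.13 to 0.31), Fzd1 (−0.21 to 0.01), Sfrp2 (−0.33 to 0.01) and Sfrp5 (−0.11 to 0.33). Without DRG 2 and spinal cord 3, Wnt10b was at 0.53, Wnt2 at 0.18 and Fzd4 at 0.21 (DRG against spinal cord). Without DRG 1 and spinal cord 3 (chosen after seeing the data), Wnt10b was at 0.03, Wnt2 at 0.03 and Lrp5 at −0.03 (DRG against spinal cord) and Fzd2 was at 0.02 (paw against DRG). Without the filter, Fzd4 was at 0.01 (DRG against spinal cord). With 2 tissues in the fit, Fzd4 was at 0.01 (DRG against spinal cord). Without DRG 1 and DRG 2, Fzd4 was at 0.29 and Lrp5 at −0.17 (DRG against spinal cord) and Fzd2 was at 0.32 and Sfrp4 at 0.17 (paw against DRG). With upper quartile factors, Lrp5 was at −0.03 (DRG against spinal cord). Without DRG 1 and DRG 2, called values that moved by over 1.5 times were, in DRG against spinal cord, Wnt3a (3.06, against 0 reads in spinal cord), Wnt4 (−2.03), Wnt8b (−3.67), Fzd2 (0.68), Fzd9 (−4.28), Sfrp2 (−4.55) and Rspo3 (−1.91). In paw against DRG they were Wnt2 (4.71), Wnt3a (5.45), Fzd9 (2.92), Sfrp2 (4.42) and Rspo3 (0.90). The cause was not tested. Upper quartile factors moved the median of all genes by 0.123 in paw against DRG. With the replicate number as a block, 18 members were called higher and 16 lower in DRG than in spinal cord, 26 and 13 in paw against DRG, and 27 and 10 in paw against spinal cord. Of 9 same-numbered pairs 2 had correlated deviations over 0.1 (−0.178 to 0.337), no library correlated best with its own number in both other tissues, and the labels do not say that a number marks a mouse, so the numbers were not used to pair samples. Wnt1, Wnt8a, Wnt9b and Dkk1 were left out by the filter on low counts, and without it 48 of the 49 members entered the test, all but Dkk4, which had 0 reads.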

Other observations

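In 2 of 4 pairs of neighbouring ligand genes, the genes were highest in different tissues. In RefSeq (GRCm38.p6) 4 pairs of Wnt genes are direct neighbours among protein-coding genes. Wnt6 and Wnt10a are neighbours on chromosome 1. Wnt6 was higher in DRG than in paw and Wnt10a higher in paw than in DRG, with paw differences from DRG of −1.77 ± 0.27 and 4.14 ± 0.25. Wnt3a and Wnt9a are neighbours on chromosome 11, and their paw differences from DRG were 4.85 ± 0.45 and −1.12 ± 0.16. The other pairs had a low member. Wnt3 stood at 15.8 ± 1.19 CPM in paw and its neighbour Wnt9b, also on chromosome 11, at 0.681 ± 0.344 CPM. Wnt10b had 388 reads over paw, and Wnt1, beside it on chromosome 15, had 7. Whether the 2 genes of a pair respond differently was not tested as a difference between genes.

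Genes of planar cell polarity, a branch of Frizzled signalling that orients cells in a sheet, were called about as often as other genes in DRG against spinal cord. Among 10 tested genes, DRG against spinal cord gave 2 higher and 4 lower (60% called, background 59.6%), 6 higher and 4 lower in paw than in DRG (100%, background 80.5%), and 5 and 4 in paw against spinal cord (90%, background 81.6%). Celsr1, a cadherin of the epidermis, was at 22.4 ± 7.02 CPM for DRG, 9.49 ± 4.1 for cord and 93.5 ± 14.6 for paw, and was higher in paw than in spinal cord by 3.31 ± 0.35, adjusted p = 1.87e-05. Vangl2 was at 2.1 ± 0.175 CPM for DRG, 10.3 ± 2.89 for cord and 16.6 ± 3.21 for paw, and was lower in DRG than in spinal cord (−2.28 ± 0.24, adjusted p = 7.16e-06) and higher in paw than in DRG (2.98 ± 0.24, adjusted p = 2.44e-07). Daam2, an actin regulator downstream of Dishevelled, had the reverse contrast with paw, at 123 ± 3.19 CPM for DRG, 211 ± 44.1 for cord and 24.9 ± 2.79 for paw (−2.31 ± 0.15, adjusted p = 3.18e-08 in paw against DRG and −3.08 ± 0.15, adjusted p = 2.69e-09 in paw against spinal cord).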
